A study of Mus musculus with 6 samples.

Results

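The gluconeogenesis enzymes described here are 9 genes, *Pck1*, *Pck2*, *Pcx*, *Fbp1*, *G6pc*, *Slc37a4*, *Gpd1*, *Ldha* and *Crtc2*, taken by symbol from the 24421 genes of a hepatic RNA-seq table. All 9 were found. *Crtc2* is a transcriptional coactivator and *Slc37a4* a transporter, so the list is broader than its enzymes. The study sequenced hepatic mRNA from 3 WT mice and 3 mice heterozygous for *Pai-1* (*Pai-1*+/-), the gene of plasminogen activator inhibitor 1, as a genetic counterpart to mice given a PAI-1 inhibitor. The labels give C57BL/6 mice of 21 weeks fed without restriction, and the study describes C57BL/6 J males on standard chow at a slightly younger age. The *Pai-1*+/- mice came from crosses of *Pai-1*-/- and WT mice, so every cell carries the null allele from birth. The table of counts per animal heads its 6 columns with animal numbers that match no sample label, so no column could be given a genotype. The values below are therefore the mean normalized count that the authors computed over all libraries of both genotypes. They describe the level of each transcript in these livers, with no SD, no n of their own and no difference between the genotypes.

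Gluconeogenesis makes glucose from lactate, alanine, other amino acids and glycerol, and in the fasted animal it takes place mainly in the liver, with a contribution from the kidney. Most of the route is glycolysis run backwards, but several glycolytic steps are irreversible in the cell and are bypassed by separate enzymes. Pyruvate carboxylase and phosphoenolpyruvate carboxykinase carry pyruvate to phosphoenolpyruvate, fructose-1,6-bisphosphatase removes a phosphate from fructose bisphosphate, and glucose-6-phosphatase releases free glucose. Glucagon raises transcription of *Pck1* and *G6pc* through cyclic AMP and the factor CREB, and insulin lowers it.

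Upstream sequence of *Pck1*, *Fbp1* and *Pck2* is shown because they are the 2 genes of highest level and the gene of lowest level in the list, and because *Pck1* and *Pck2* encode the cytosolic and mitochondrial forms of the same enzyme. The sequences are from RefSeq on GRCm38.p6, read 5′ to 3′ on the strand of the gene. They start 250 bases before the RefSeq start and stop before the first annotated exonic base. Capitals mark 2 of the motifs searched on both strands, CCAAT (the CCAAT box) and TGACG (a half-site of the cyclic AMP response element), each printed as ATTGG or CGTCA where it lies on the other strand. The forkhead core GTAAACA and the TATA box TATAAA were also searched, with no match in these windows.
*Pck1*, chr2:173152823-173153047, plus strand: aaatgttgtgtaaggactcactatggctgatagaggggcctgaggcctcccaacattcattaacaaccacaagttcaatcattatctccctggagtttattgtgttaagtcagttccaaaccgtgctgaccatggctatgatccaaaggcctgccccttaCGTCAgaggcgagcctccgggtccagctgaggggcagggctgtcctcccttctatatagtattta
*Fbp1*, chr13:62888283-62888532, minus strand: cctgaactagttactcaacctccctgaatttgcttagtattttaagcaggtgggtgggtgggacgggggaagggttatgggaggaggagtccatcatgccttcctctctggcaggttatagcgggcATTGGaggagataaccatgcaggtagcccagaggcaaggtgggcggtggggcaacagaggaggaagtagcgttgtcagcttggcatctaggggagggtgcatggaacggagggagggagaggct
*Pck2*, chr14:55540016-55540265, plus strand: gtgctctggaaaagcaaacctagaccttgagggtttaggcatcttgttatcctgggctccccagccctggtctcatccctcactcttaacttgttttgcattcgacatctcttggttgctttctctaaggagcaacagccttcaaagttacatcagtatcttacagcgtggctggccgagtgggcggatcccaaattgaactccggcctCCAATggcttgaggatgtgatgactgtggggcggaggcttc

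In *Pck1* the half-site began at position -90 from the RefSeq start, on the antisense strand. *Fbp1* and *Pck2* held a CCAAT box, beginning at -124 and -41. RefSeq upstream windows were matched for 7 of the 9 genes, with 11 start sites between them. Over the 250 bases before any of its starts, the TGACG half-site was found in 3 of these genes, *Pck1*, *Slc37a4* and *Ldha*, and the CCAAT box in 4, *Pcx*, *Fbp1*, *G6pc* and *Pck2*. The TATA box was found in 2, *G6pc*, where it began at -29, and *Slc37a4*. Of all 32851 windows of this length in the RefSeq table, 17.8% held the half-site, 33.8% the CCAAT box, 12.4% the TATA box and 3.17% the forkhead core, which none of the 7 genes held. These shares are per window, and by window the members held the half-site in 5 of 11, the CCAAT box in 4 and the TATA box in 2. The windows are not independent. Those of the first and second *Slc37a4* starts overlap, and the half-site at -61 in the first is the same site as that at -214 in the second. Of the 11 windows, 5, those of *Pck1*, *G6pc* and *Slc37a4*, include annotated exonic bases, where matches were counted too. The match counts describe the letters only and identify no bound site.

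The 9 genes together took 0.955% of the summed mean normalized count of 30045982. *Pck1* alone accounted for 53.9% of what they took, and the other 8 genes for 0.441% of the whole. The 10 most abundant genes of the liver, by comparison, held 16.8%. To compare genes with each other, each mean was divided by the length of the longest annotated transcript in kilobases. On this scale 8 of the 9 genes lay above the median of 128.9 per kilobase, taken over the 12499 genes with a mean normalized count above 10 and a unique annotated length. *Pck2* was the exception. Of the 9, 7 were among the highest 5% of those genes.

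**Figure D1:**
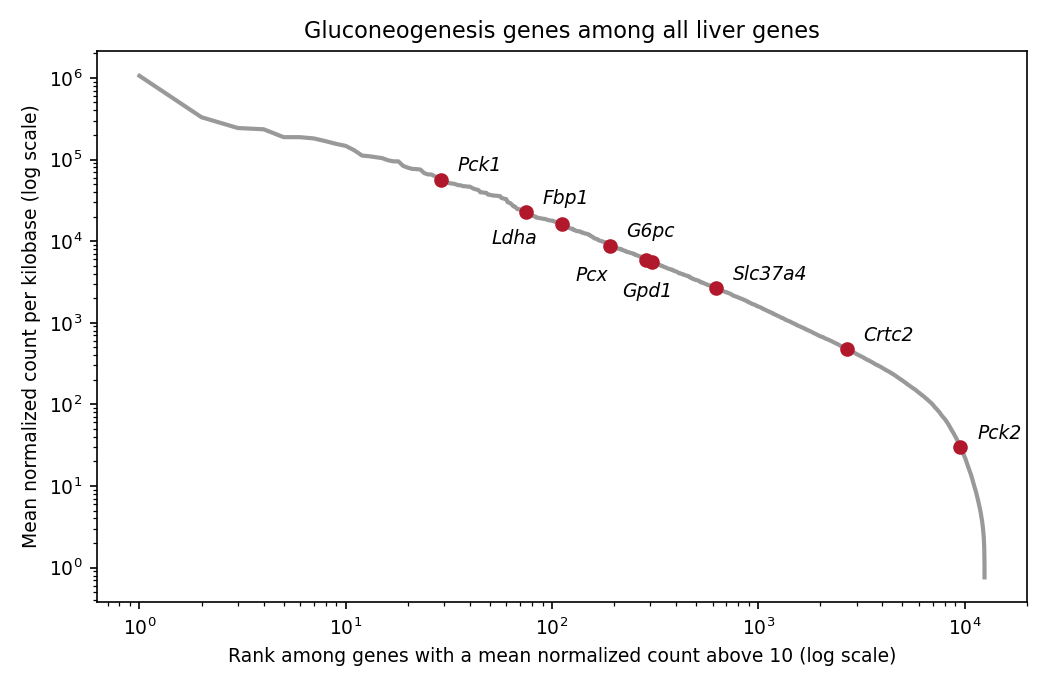
Mean normalized count per kilobase of longest transcript (log axis) of every gene with a mean normalized count above 10 and an annotated length, ordered from highest to lowest (grey line, rank on a log axis), with the 9 gluconeogenesis genes as red points. *Pck1* sits at rank 29, the next 6 genes lie between ranks 75 and 624, and *Pck2* is at rank 9545.

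*Pck1*, the cytosolic phosphoenolpyruvate carboxykinase, had the highest level. Its mean normalized count was 154531, the 19th highest of all genes in the table, or 56646 per kilobase. It lies on mm10 at chr2:173153048-173159273 on the plus strand and its coding transcript has 10 exons. Its level per kilobase was 2.49 times that of *Fbp1*, the next gene in the order. *Pcx*, the mitochondrial pyruvate carboxylase that supplies oxaloacetate to the pathway, had a mean normalized count of 24049, or 5798 per kilobase. It spans 111281 bases at chr19:4510472-4621752 on the plus strand, the longest of the 9 genes, with 21 exons in its coding transcript.

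*Pck2*, the mitochondrial carboxykinase, had the lowest level, with a mean normalized count of 139.3, or 30.1 per kilobase. It lies at chr14:55540266-55551242 on the plus strand. Only 23.6% of the 12499 genes had a lower level per kilobase. *Pck1* exceeded it 1881-fold per kilobase of longest transcript and 1109-fold in mean normalized count without length. On the first scale, 99.9% of the combined level of this gene pair belonged to the cytosolic form. Their coding sequences were identical at 70.3% of 1866 aligned bases, with a longest identical run of 17 bases. No stretch of 75 bases, the length of the reads, was shared between the longest transcript of *Pck1* and a transcript of any other gene. In *Pck2*, 1.08% of such stretches also occurred in transcripts of other genes.

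*Fbp1*, the liver fructose-1,6-bisphosphatase, had a mean normalized count of 33667, or 22763 per kilobase, and lies at chr13:62864753-62888282 on the minus strand. *G6pc*, the catalytic subunit of glucose-6-phosphatase, reached 21204, or 8784 per kilobase, at chr11:101367561-101377903 on the plus strand. *Slc37a4*, which carries glucose 6-phosphate into the endoplasmic reticulum where that enzyme works, had a mean normalized count of 6265, or 2673 per kilobase, at chr9:44396852-44402968 on the plus strand. The phosphatase transcript was thus present at a higher level per kilobase than that of the transporter that supplies its substrate.

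*Ldha*, a lactate dehydrogenase subunit that interconverts lactate and pyruvate, had a mean normalized count of 29741, or 16386 per kilobase, between *Fbp1* and *G6pc* in the order. It lies at chr7:46841475-46855627 on the plus strand. Of its 75-base stretches, 5.23% also occurred in transcripts of 4 other genes, among them the pseudogene *Ldha-ps2*, so a small part of its reads could have been assigned elsewhere or dropped. *Gpd1*, the cytosolic glycerol-3-phosphate dehydrogenase through which glycerol enters the pathway, had 15912, or 5562 per kilobase, at chr15:99717515-99725005 on the plus strand. The annotated antisense gene *Gm16537* shares 384 exonic bases with it, 13.0% of its exons, and reads of the pair cannot be told apart if strand was not used. *Crtc2*, a CREB coactivator that moves to the nucleus under glucagon, was far lower, with a mean normalized count of 1424, or 476 per kilobase, at chr3:90254163-90264125 on the plus strand. That level still exceeded 78.5% of the 12499 genes.

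**Figure D2:**
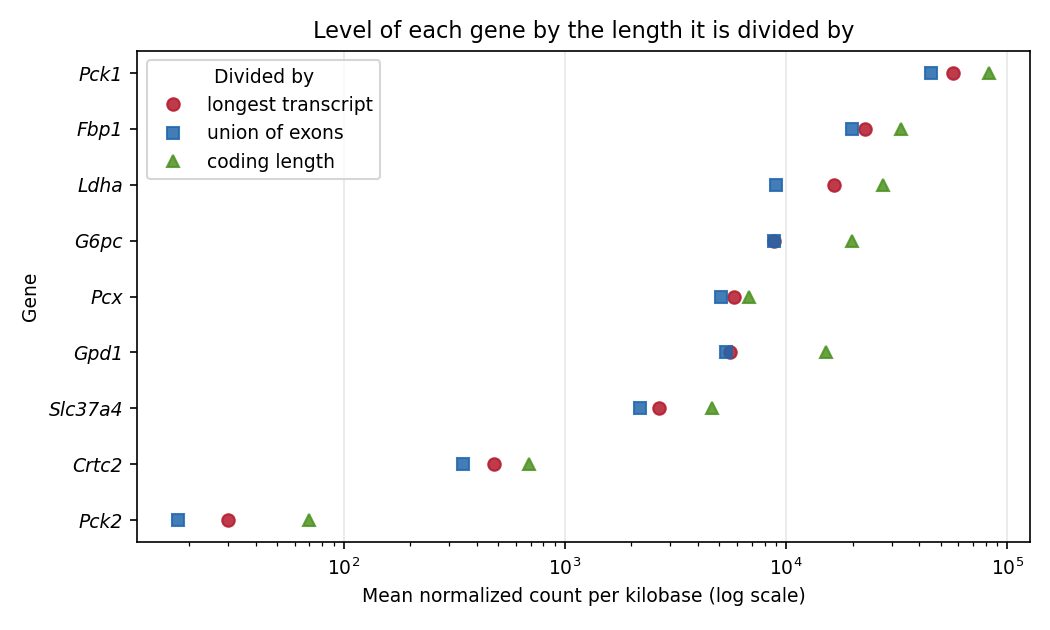
Level of each of the 9 genes as mean normalized count per kilobase (log axis), divided by the length of the longest transcript (red circles), of the union of all annotated exons (blue squares) or of the coding sequence (green triangles). The order from *Pck1* to *Pck2* is shared by the 3 scales except that *Gpd1* lies above *Pcx* when exon union or coding length is used.

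Neighbours in this order were separated by factors from 1.04, between *Pcx* and *Gpd1*, to 15.8, between *Crtc2* and *Pck2*. The counts per animal were not used here, so no spread between mice is set beside these factors. A change of length shows only how far each level moves with the scale, and says nothing of variation between mice. Division by coding length raised the level of *Gpd1* 2.73-fold and that of *Pcx* 1.17-fold, because 1814 of the 2861 bases of the longest *Gpd1* transcript are not coding. Of the 36 pairs among the 9 genes, 35 kept their order with coding length and with exon union, and the pair that changed was *Gpd1* and *Pcx* in both. With exon union *Ldha*, at 8985 per kilobase, came close to *G6pc*, at 8784, without changing places.

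Relatives that encode other isoforms or related proteins were examined for 7 of the genes, and in each family the gluconeogenesis gene had the highest level, *Pck1* in the case of the carboxykinases. *Fbp1* exceeded *Fbp2*, the muscle form, 1894-fold per kilobase. *Fbp2* had a mean normalized count of only 16.3, with no spread between mice, so the size of this ratio is uncertain. *Ldha* exceeded *Ldhb*, the heart form, 461-fold, and *Ldhc*, the testis form, was listed at 0. *Ldhb* was also low, with a mean normalized count of 46.4. *G6pc* exceeded *G6pc3*, a widely expressed phosphatase, 57.2-fold, and *G6pc2*, the pancreatic islet form, was listed at 0. *Gpd1* exceeded *Gpd1l* 17.4-fold and the mitochondrial *Gpd2* 24.1-fold. The gluconeogenesis gene held 91.0% of the combined level per kilobase in the *Gpd* genes and 90.4% in the *Slc37a* genes, where *Slc37a3* was the next at 209.4 per kilobase. The share was lowest for *Crtc2*, at 78.6%, with *Crtc3* at 101.7 and *Crtc1* at 27.9 per kilobase. These shares depend on the lengths used and were not recomputed with others. Without length the *Crtc* genes lay closer together, with mean normalized counts of 1424 for *Crtc2*, 520.2 for *Crtc3* and 286.6 for *Crtc1*.

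**Figure D3:**
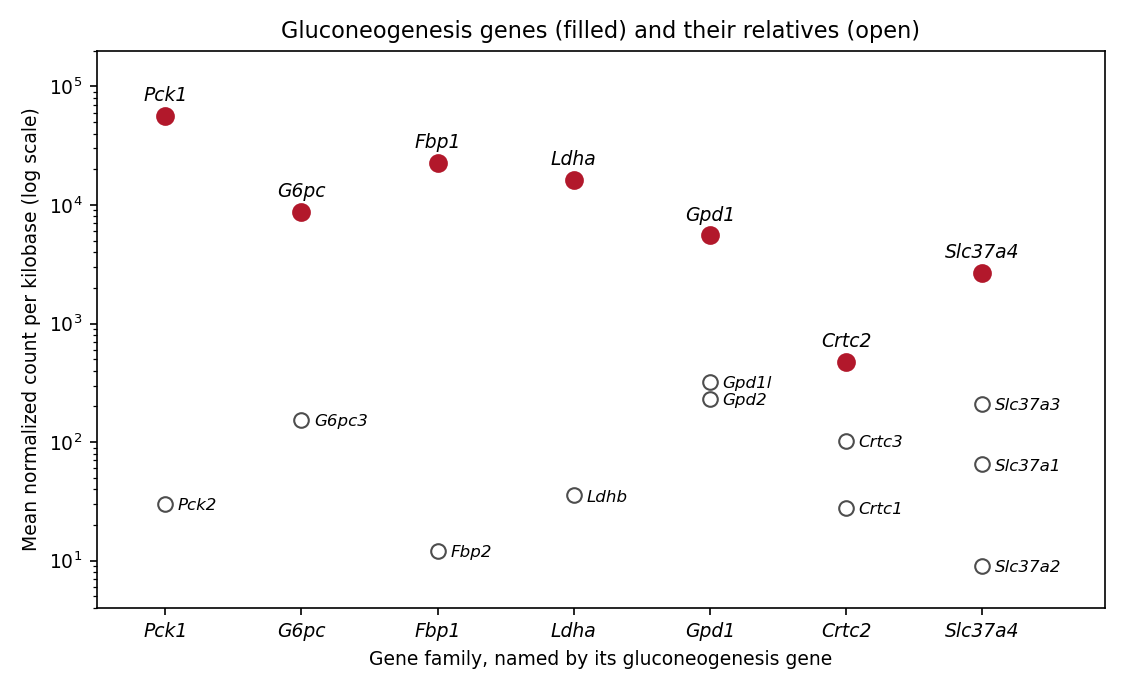
Mean normalized count per kilobase of longest transcript (log axis) of 7 gluconeogenesis genes (filled red) and of their relatives (open), by family. The filled point is the highest of each family, by 1894-fold over *Fbp2* and by 4.68-fold over *Crtc3*. *Fbp2* had a mean normalized count of only 16.3, so the size of the 1894-fold ratio is uncertain. *G6pc2* and *Ldhc*, listed at 0, are not drawn.

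Sequence shared between relatives bears on how well they are counted apart. Over 9 pairs compared, coding identity to the gluconeogenesis gene ranged from 57.3% for *G6pc3* to 73.2% for *Ldhc*, and the longest identical run was 26 bases, between *Crtc2* and *Crtc1*. *Ldhb* shared 16.7% of its 75-base stretches with *Gm5514*, so its level, and with it the 461-fold ratio, is uncertain. *Gpd2* and *Slc37a2* shared 2.43% and 2.84% with another gene. A value of 0 is less certain. *Eno1*, an enolase that nearly every cell uses, was also listed at 0, and 65.4% of its 75-base stretches occurred in other transcripts, mostly of *Eno1b*. *Pgk1*, which shares 67.5% of its stretches, had a mean normalized count of 2687. The cause of the 0 for *Eno1* was not tested. *G6pc2* and *Ldhc* shared no such stretch with another gene.

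At 2 of the steps with separate enzymes in each direction, the transcripts of the gluconeogenic side were the more abundant, and the remaining step is not reported here. *Pcx*, *Pck1* and *Pck2* summed to 62474 per kilobase against 1350 for the pyruvate kinases *Pklr* and *Pkm*, a ratio of 46.3. That sum spans consecutive reactions, the carboxylase and then the carboxykinase, and *Pck1* made up 56646 of it. *Pcx* alone stood at 5798 per kilobase, so the excess for the carboxylase reaction was much smaller than 46.3-fold. *Fbp1* stood at 43.8 times the summed level of the phosphofructokinases *Pfkl*, *Pfkm* and *Pfkp*, which was 519.6, and at 18.9 times when the mean normalized counts were not divided by length. *Pklr*, the liver pyruvate kinase, was the highest glycolytic gene of these steps at 1213 per kilobase, below *Pcx* and *Pck1* but above *Pck2*. It shares 22.5% of its 75-base stretches with *Hcn3*, and *Pkm* shares 19.6% with other genes, so the summed level of the pyruvate kinases is uncertain. The ratios compare transcripts, and neither the amount of each protein nor its activity was measured.

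**Figure D4:**
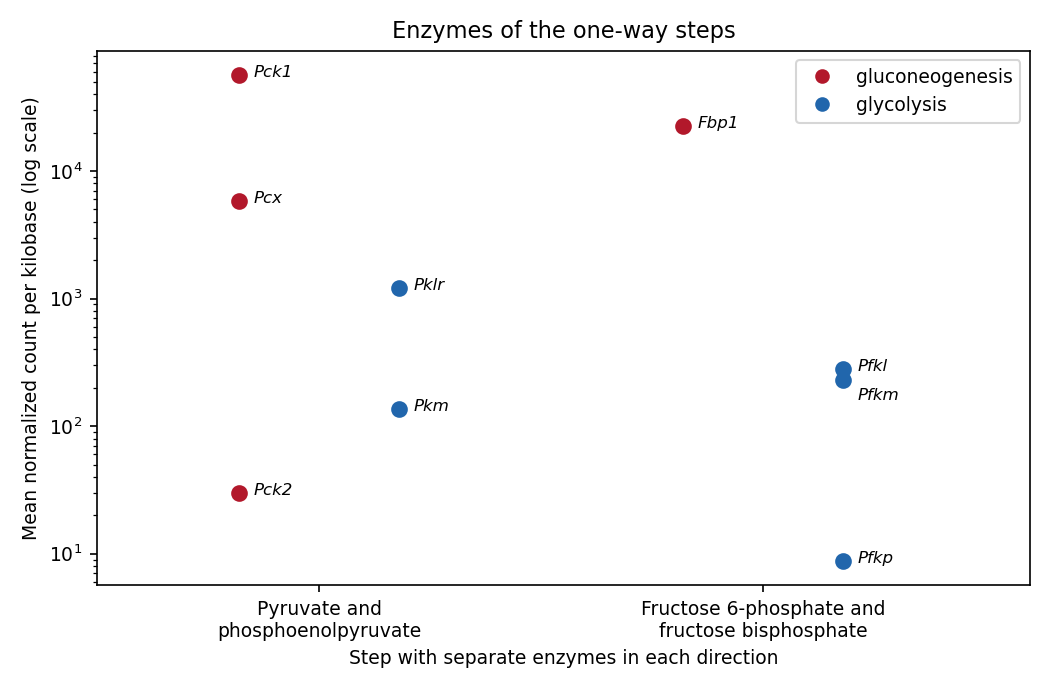
Mean normalized count per kilobase of longest transcript (log axis) of the gluconeogenic (red) and glycolytic (blue) genes at 2 steps with separate enzymes. At each step a red gene is highest, while *Pck2* lies at 30.1 per kilobase, below *Pklr* and *Pkm*. The summed red level is 46.3 times the summed blue level at the left step and 43.8 times at the right. The red sum at the left spans consecutive reactions and is mostly *Pck1*.

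Some of the genes whose enzymes serve both directions reached the levels of the gluconeogenesis genes. *Tpi1*, triosephosphate isomerase, stood at 5715 per kilobase, between *Pcx* and *Gpd1*. *Gapdh* stood at 3260, *Pgk1* at 1472 and *Gpi1* at 1344 per kilobase. *Pgam1*, a phosphoglycerate mutase, was low at 354.0. *Pgk1*, *Pgam1* and *Gapdh* share 67.5%, 40.6% and 22.8% of their 75-base stretches with other transcripts, so their levels are uncertain in a way that those of *Pck1*, *Fbp1*, *G6pc*, *Pcx* and *Slc37a4*, which share 0, are not. *Aldoa* had a mean normalized count of 3216 and no unique annotated length.

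Genes that bring substrate into the pathway were abundant, and 17 of 18 lay above the median gene of 128.9 per kilobase. The highest were *Mdh1* (7848 per kilobase) and *Got1* (7419 per kilobase), which move reducing equivalents and oxaloacetate between compartments, *Gpt2* (7352 per kilobase), an alanine aminotransferase, and *Aqp9* (7057 per kilobase), the hepatocyte glycerol channel. All were above *Pcx*. Glycerol kinase, *Gk*, which the table lists as *Gyk*, stood at 1652, and the mitochondrial pyruvate carrier genes *Mpc1* and *Mpc2* at 1603 and 1237. Without length the order of the carrier genes was the reverse, with mean normalized counts of 1540 for *Mpc1* and 4968 for *Mpc2*. *Slc25a12* was the exception, at 117.3, while its relative *Slc25a13*, the aspartate-glutamate carrier of liver, was at 3753. *Slc2a2*, the glucose transporter of hepatocytes, had 1565 per kilobase.

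Of 16 genes that control the pathway, 10 lay above the median gene per kilobase. This number depends on length. Without it, *Creb1* (503.5), *Crebbp* (536.0) and *Ep300* (903.2), which have long transcripts, also exceeded the median mean normalized count of 440.4. The hepatocyte factor *Hnf4a* was highest at 5587 per kilobase, close to *Pcx* and *Gpd1*, followed by *Cebpa* at 3684 and the glucagon receptor *Gcgr* at 3074. *Cebpb* reached 2467. The signalling partners of *Crtc2* were lower than these genes, but *Prkaca* and *Sik1* exceeded *Crtc2* itself, which had 475.8 per kilobase. *Prkaca*, the catalytic subunit of protein kinase A, had 1023 per kilobase. *Sik1*, a kinase that keeps CRTC2 in the cytoplasm, had 565.2, and its relatives *Sik3* and *Sik2* had 280.2 and 33.5. *Creb1*, the DNA-binding partner of CRTC2, had 60.2. *Ppargc1a*, a fasting-induced coactivator of *Pck1*, had 61.3 and *Foxo1*, the insulin-regulated forkhead factor, 216.5.

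**Figure D5:**
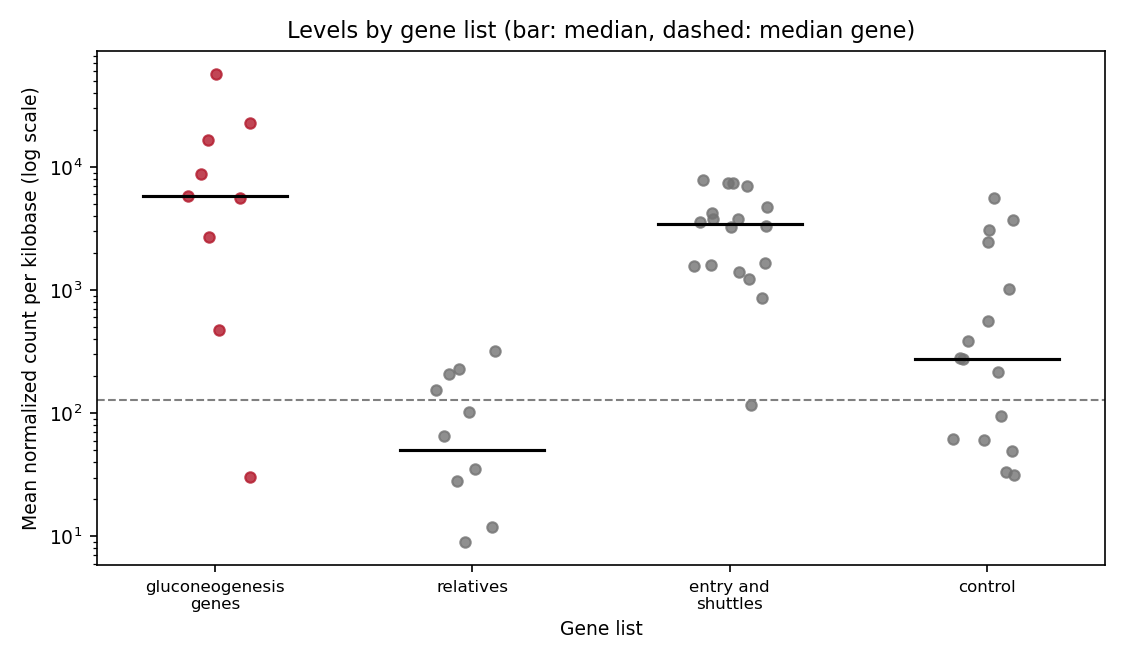
Mean normalized count per kilobase of longest transcript (log axis) of each gene in 4 lists, as points, with the list's median as a bar and the median of 128.9 over the 12499 genes above the minimum as a dashed line. The medians were 5798 for the gluconeogenesis genes, 3436 for entry and shuttle genes, 276.8 for control genes and 50.3 for relatives; genes listed at 0 enter the medians and are not drawn.

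The labelled tissue was checked by its markers. All 7 hepatocyte genes were abundant, with mean normalized counts from 24370 for *Hnf4a* to 2155546 for *Alb*, and they held 10.2% of the summed count. The kidney also expresses *Pck1*, *Fbp1* and *G6pc*, and its tubule markers *Umod*, *Slc34a1*, *Kap* and *Slc12a1* were at or below 0.322. The markers of other liver cells were present at lower levels, from 173.0 to 2374 for 6 Kupffer cell genes, from 204.6 to 1273 for 5 endothelial genes, from 134.9 to 4160 for 4 stellate cell genes and from 25.8 to 268.2 for 4 cholangiocyte genes. In bulk tissue, more cells of a type and more RNA in each cell cannot be told apart. The 4 haemoglobin genes looked for were listed at 0, and more than 56% of the 75-base stretches of each were shared with its neighbouring copy. Why they were listed at 0 was not tested.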

How the data were processed

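Hepatic mRNA from 3 WT and 3 *Pai-1*+/- mice was sequenced as single-end reads of 75 bases. The authors used the RNA Express application of BaseSpace for alignment to mm10 (STAR) and for DESeq2. HOMER is also named in the submitters' processing notes. Versions, annotation, counting and strand settings are not given in the sources used here. For each gene the authors deposited a signal value, its size-factor-normalized count averaged across the libraries, without correction for length. How reads that map to several places were counted is not known, and it can alter the level of genes with close copies. That table also holds the authors' fold changes, standard errors, test statistics and p-values, which were not used. The 6 deposited columns of counts per animal were not used, because their names match no label. The planned edgeR comparison of the genotypes was therefore not made, no depth per library or interval is given.

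GENCODE M21 (GRCm38, equivalent to mm10) supplied lengths, exons and coordinates. Of 24421 genes, 23334 matched 1 gene by symbol, as did 12499 of the 12971 with a mean above 10. Levels are the mean normalized count per kilobase of the longest transcript. Alternatives were exon union, coding length, no length, all genes listed as reference and omission of the 10 most abundant genes. Stretches of 75 bases were compared on both strands with all GENCODE transcripts, a step tested on simulated data. Coding sequences were aligned globally. The genes named are the 9 members and the genes of the lists, of which 2 are not reported here. The members, lists and motifs were chosen with earlier results of these data known. Python 3.11.15, NumPy 2.4.6, pandas 2.3.3 and Matplotlib 3.10.9 were used.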

Additional observations from a re-analysis of the deposited data

How the results depend on the processing

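No paired analysis was possible because the columns of counts per animal carry no replicate number or genotype. Since those columns match no label they were not used, and no fit without a filter, with DESeq2 or without a mouse was run. The ratio of the highest to the lowest gene, *Pck1* to *Pck2*, was 1881 per kilobase of longest transcript, 2525 with exon union, 1190 with coding length and 1109 with no length. Of 36 pairs of genes, 35 kept their order under each of these 3 alternatives, and the pair that changed was *Gpd1* and *Pcx* for exon union and coding length and *G6pc* and *Pcx* with no length. The share of the summed count taken by the 9 genes rose from 0.955% to 1.15% without the 10 most abundant genes. The ratios of gluconeogenic to glycolytic transcripts were recomputed with other lengths after the data were seen. From pyruvate to phosphoenolpyruvate the ratio was 43.5 with exon union, 39.8 with coding length and 46.4 with no length. For the bisphosphatase step these were 54.7, 43.6 and 18.9. All stayed above 1. Against all 24421 genes listed, the percentile of *Pck2* by mean normalized count rose from 28.8 to 62.2. A rise was fixed in advance, because every gene added has a mean of at most 10, below the 139.3 of *Pck2*.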

Other observations

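Markers of tissues next to the liver were mostly near 0 in mean normalized count. The 3 adipocyte genes lay between 0.866 and 7.87 and the 3 skeletal muscle genes between 0.690 and 3.24. Of 4 pancreatic genes, *Cela1* had 242.2 and *Cpa1* 22.2, while *Prss1* and *Ins2* were listed at 0. The 3 neutrophil genes found in the table ranged from 8.82 to 71.5.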
